A study of Mus musculus with 6 samples.

Results

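The genes described here encode the conjugating enzymes of liver: UDP-glucuronosyltransferases (Ugt), glutathione S-transferases (Gst and the membrane-bound Mgst) and cytosolic sulfotransferases (Sult). They were chosen by symbol, as genes read by a probe set with a single symbol that begins with Ugt1, Ugt2, Ugt3 or Ugt8, with Gst and a class letter, with Mgst or with Sult, and they came to 53 of 22180 genes on the array. Of these, 11 were Ugt genes, 21 Gst or Mgst genes and 21 Sult genes. Each was read by 1 probe set. No Ugt1 gene was among them, because the probe sets of that locus carry several symbols.

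Liver RNA was measured on 6 one-colour Affymetrix arrays, 3 from Balb/c and 3 from Balb/cBy mice. All mice were male, were kept in individual cages, ate food that drew 58% of its energy from fat for 12 weeks, starting at 8 weeks of age, and were 20 weeks old at the end. The substrains come from an albino inbred line and were bred apart, and Balb/cBy is known to carry a deletion in Acads, the gene of short-chain acyl-CoA dehydrogenase. The labels give neither the supplier of the mice nor a genotype beyond the strain, and a group on another diet was not analysed here. The 10 hepatocyte markers were all measured, with log2 values from 10.7 to 14.2, and their summed intensity was 118000 to 122000 in Balb/c and 114000 to 125000 in Balb/cBy.

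Conjugating enzymes attach a water-soluble group to drugs, hormones, bilirubin and bile acids, so that these can leave the cell. Ugt enzymes sit in the endoplasmic reticulum and transfer a sugar, usually glucuronic acid, from a UDP-sugar. Gst enzymes join glutathione to reactive compounds, and Sult enzymes transfer sulfate from the donor PAPS. In liver, many of them are induced through the receptors CAR, PXR and AhR and through NRF2, and several differ between males and females in mice.

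After the high-fat diet, the values of the substrains overlapped for most conjugating enzyme genes, and the gene with the smallest p was Sult5a1, a sulfotransferase, with a Balb/cBy to Balb/c ratio of 1.93. With limma, 0 of 53 genes passed an adjusted p of 0.05, beside 0% of all 22180 genes (0 genes). Of the 53, 3 had an unadjusted p under 0.05 (5.66%), Sult5a1, Sult3a1 and Sult1a1, all higher in Balb/cBy, beside 3.76% of all genes, 2.59% higher and 1.16% lower. With an ordinary test without moderation it was reached by 2. The values of the 3 Balb/c arrays and the 3 Balb/cBy arrays did not overlap for 4 of the 53 (7.55%), beside 7.83% of all genes (4.32% higher and 3.51% lower), and all 4 were higher in Balb/cBy (Gstk1, Gstm1, Sult3a1 and Sult5a1). Both shares of the 53 genes lay near those of all genes.

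The log2 difference (Balb/cBy minus Balb/c) was above 0 for 27 of the 53 and below 0 for 26, with a median of 0.00090, beside a median of -0.0028 over all genes. Its median size was 0.12 for the 53 genes and 0.079 for all genes, with a median standard error (SE) of 0.15 and 0.12. The 95% interval of the difference lay within 1 log2 unit on either side of 0 for 49 of the 53 genes, which leaves Sult2a8, Sult5a1, Ugt2b37 and Ugt2b5. It lay within 0.5 for 29 of them. In bulk liver RNA, fewer cells of a type and less RNA per cell cannot be told apart.

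**Figure D1:**
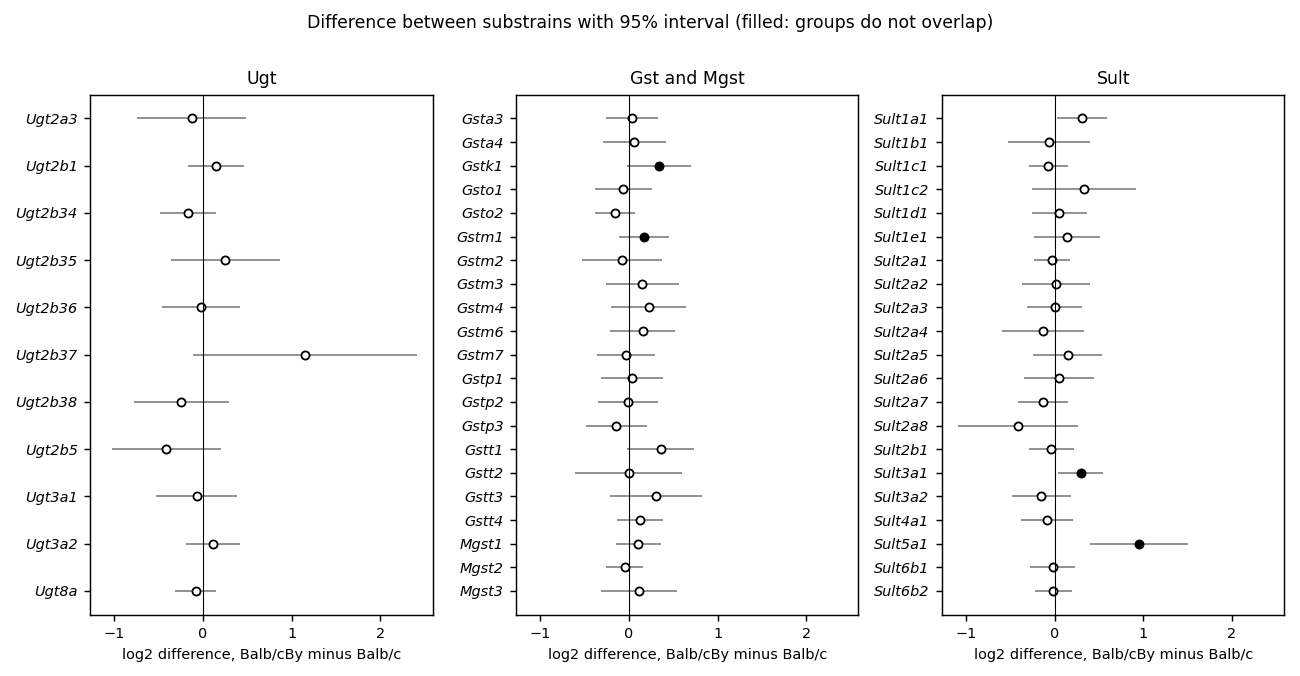
Log2 difference between substrains (x axis, Balb/cBy minus Balb/c) for each of the 53 genes (y axis), with 95% intervals from limma. Filled points mark the 4 genes whose groups do not overlap. Sult5a1 lies at 0.95, while the intervals of most other genes include 0.

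Sult5a1 is a cytosolic sulfotransferase known from mouse. Its log2 values were 8.19, 8.37 and 9.18 in Balb/c replicates 1, 2 and 3 and 9.65, 9.62 and 9.31 in Balb/cBy. The Balb/cBy arrays lay close together and above all Balb/c arrays, and Balb/c replicate 3 was only 0.13 below the lowest of them. The means were 8.58 ± 0.53 and 9.53 ± 0.19 (SD, n = 3 each). The log2 difference was 0.95 (SE 0.24), and the adjusted p in limma was 0.999. The difference ranged from 0.75 without Balb/c replicate 1 to 1.25 without Balb/c replicate 3.

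Of the 10 genes that flank Sult5a1 in RefSeq order, 5 on each side among measured protein-coding genes, the groups did not overlap for 2 (all genes, 7.83%). Dpep1, the neighbour on one side, encodes a dipeptidase that breaks down the cysteinylglycine conjugates formed from glutathione conjugates. Its log2 values were 8.39, 8.49 and 8.23 in Balb/c and 8.64, 8.92 and 9.05 in Balb/cBy. As for Sult5a1, all Balb/cBy arrays lay above all Balb/c arrays, with a log2 difference of 0.50 (SE 0.13, limma adjusted p = 0.999). Cdh15, a cadherin 5 genes away on the other side, had a difference of -0.12 (SE 0.096) without overlap. The nearest gene on that side, Cpne7, differed by -0.16 (SE 0.13) and its groups overlapped. Around the 4 genes without overlap together, 2 of 40 flanking genes had groups that did not overlap, both of them beside Sult5a1.

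The start regions of Sult5a1 and Dpep1 are shown because these neighbours, which are transcribed away from each other, differed in the same direction. Each run of 300 bases is from RefSeq (build GRCm38.p6) and covers 250 bases before to 50 after the start. Sult5a1 lies at chr8:123158231-123158530, minus strand, and Dpep1 at chr8:123185985-123186284, plus strand. The starts are 28.0 kb apart. Capitals mark a core of the AhR element (XRE), GCGTG on either strand, which was found in Dpep1 only and is held by 32.4% of all 32851 RefSeq windows of this length.
Sult5a1: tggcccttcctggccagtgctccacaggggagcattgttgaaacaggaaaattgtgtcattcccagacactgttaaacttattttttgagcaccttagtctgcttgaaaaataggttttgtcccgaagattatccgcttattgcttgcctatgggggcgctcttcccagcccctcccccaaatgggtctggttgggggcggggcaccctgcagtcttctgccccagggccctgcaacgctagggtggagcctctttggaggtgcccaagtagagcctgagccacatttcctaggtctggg
Dpep1: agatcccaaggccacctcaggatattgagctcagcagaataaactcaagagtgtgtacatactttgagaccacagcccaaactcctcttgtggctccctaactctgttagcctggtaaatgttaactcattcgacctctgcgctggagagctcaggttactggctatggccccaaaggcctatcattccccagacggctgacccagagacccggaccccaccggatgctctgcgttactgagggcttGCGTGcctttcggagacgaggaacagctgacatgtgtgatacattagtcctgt

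Sult3a1 is an amine sulfotransferase that is known to be higher in female than in male mouse liver. Its log2 values were 4.48, 4.51 and 4.56 in Balb/c and 4.74, 5.01 and 4.68 in Balb/cBy. The groups did not overlap, and the log2 difference was 0.29 (SE 0.11, limma adjusted p = 0.999). Its mean was in the lowest 25% of all genes on the array, below 7.25, and detection calls were not used here. The adjacent gene Sult3a2 had a difference of -0.15 (SE 0.14) with overlap.

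Sult1a1, the main phenol sulfotransferase of liver, had values of 11.82, 11.46 and 11.47 in Balb/c and 11.81, 11.89 and 11.97 in Balb/cBy. Balb/c replicate 1 lay just above the lowest Balb/cBy array, so the groups overlapped by that array alone. The log2 difference was 0.31 (SE 0.12, limma adjusted p = 0.999), with an interval from 0.028 to 0.59. The other Sult1 genes spread around 0: Sult1c2 at 0.33 (SE 0.26), Sult1e1, the estrogen sulfotransferase, at 0.14 (SE 0.16), Sult1d1, which acts on catecholamines, at 0.048 (SE 0.14), Sult1b1, which acts on thyroid hormone, at -0.070 (SE 0.20) and Sult1c1 at -0.074 (SE 0.095). The median of the 6 Sult1 genes was 0.094.

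Sult2 enzymes act on steroids and bile acids, and 8 of the 9 measured form a run of neighbours. Of the 9, 4 had a difference above 0 and 5 below, with a median of -0.031, and the groups overlapped in each. Sult2a8, which sulfates bile acids in mouse liver, had values of 11.40, 10.90 and 12.26 in Balb/c and 10.94, 11.18 and 11.19 in Balb/cBy. Its Balb/cBy arrays lay within the range of the Balb/c arrays, whose replicate 3 was highest of all. The log2 difference was -0.42 (SE 0.30) with all arrays and -0.048 without Balb/c replicate 3, and -0.73 with replicate 2 left out. The other 8 Sult2 genes lay between -0.14 and 0.14, and 6 of the 9 had means in the lowest 25% of all genes. Sult4a1, a sulfotransferase of brain, was at -0.092 (SE 0.13), Sult6b1 at -0.023 (SE 0.11) and Sult6b2 at -0.017 (SE 0.090).

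**Figure D2:**
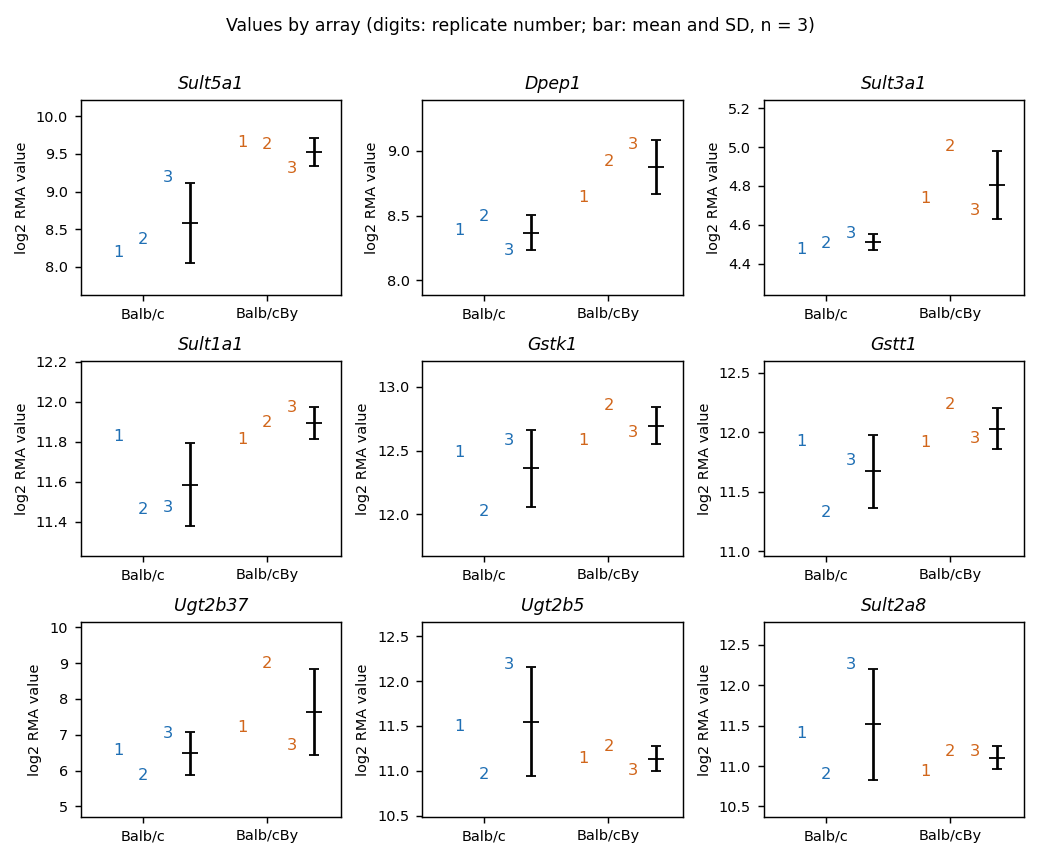
Log2 RMA values (y axis) of 9 genes in the 2 substrains (x axis), with replicate numbers as symbols and bars for mean and SD (n = 3). The groups are apart in Sult5a1, its neighbour Dpep1 and Sult3a1, and by only 0.0055 in Gstk1. Ugt2b5 and Sult2a8 show a spread Balb/c group with replicate 3 at the top.

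Ugt2 genes, whose enzymes act on steroids, bile acids and phenols, shared an order over the Balb/c arrays. In all 8, replicate 2 was the lowest and replicate 3 the highest of the 3 Balb/c arrays, an order found in 18.2% of all genes. The median SD of the 8 genes was 0.49 in Balb/c against 0.15 in Balb/cBy, and the SD was larger in Balb/c for 7 of them (all genes, 47.0%), the exception being Ugt2b37. The 8 are neighbours in RefSeq order, are similar in sequence, and may share probes or RNA, so they are not 8 separate observations.

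Ugt2b5 had values of 11.50, 10.96 and 12.18 in Balb/c and 11.13, 11.27 and 11.00 in Balb/cBy. The Balb/cBy arrays all lay between the lowest and the highest Balb/c array, and the log2 difference was -0.41 (SE 0.27), or -0.097 with Balb/c replicate 3 left out and -0.71 with replicate 2 left out. Ugt2b36 had values of 12.80, 12.43 and 13.21 in Balb/c and 12.90, 12.89 and 12.59 in Balb/cBy. Its difference was -0.023 (SE 0.19), and the Balb/cBy arrays again fell inside the range of the Balb/c arrays. The same held for Ugt2a3 (difference -0.13, SE 0.27), Ugt2b1 (0.15, SE 0.14) and Ugt2b35 (0.25, SE 0.27). With 1 array left out these ranged from -0.49 to 0.094, from 0.025 to 0.28 and from -0.061 to 0.51, and the sign turned for Ugt2a3 without Balb/c replicate 1 or replicate 3 and for Ugt2b35 without Balb/c replicate 2. Ugt2b34 differed by -0.17 (SE 0.14) and Ugt2b38 by -0.24 (SE 0.23).

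Ugt2b37 had the largest difference of the 53 genes, 1.15 (SE 0.55), with a limma adjusted p of 0.999. Its values were 6.55, 5.86 and 7.04 in Balb/c and 7.21, 8.998 and 6.70 in Balb/cBy. Balb/cBy replicate 2 stood far above the other arrays, the groups overlapped, and without that array the difference was 0.47. The SD was 0.59 in Balb/c and 1.21 in Balb/cBy. The means of Ugt2b37 and Ugt2b38 over all arrays were 7.06 and 5.55, in the lowest 25% of all genes. Both are among the 8 Ugt2 genes with the shared order over the Balb/c arrays. The median difference of the 8 Ugt2 genes was -0.075 with all arrays, 0.13 with Balb/c replicate 3 left out and -0.25 with replicate 2 left out.

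The 10 genes of a list known to be higher in male than in female mouse liver had mean deviations from their 6-array mean of -0.22, -0.39 and 0.43 in Balb/c replicates 1, 2 and 3, and of 0.15, 0.087 and -0.054 in Balb/cBy. In Balb/c this is the same order as in the Ugt2 genes, whose mean deviations were -0.017, -0.49 and 0.40. The lists of cofactor supply, of receptors and regulators, of transporters and of periportal genes also had replicate 2 lowest and replicate 3 highest. Their mean deviations were smaller, from -0.15 to -0.069 in replicate 2 and from 0.078 to 0.32 in replicate 3. The order, though not its size, was thus shared by lists other than the male-biased list. The part of any of these lists in the Ugt2 values was not tested. Sult1b1, in the same run of neighbours as the Ugt2 genes, had the same order in Balb/c at 8.70, 8.17 and 9.04, while Sult1d1 (11.49, 11.00 and 11.28) and Sult1e1 (5.89, 6.32 and 6.23) in that run did not.

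**Figure D3:**
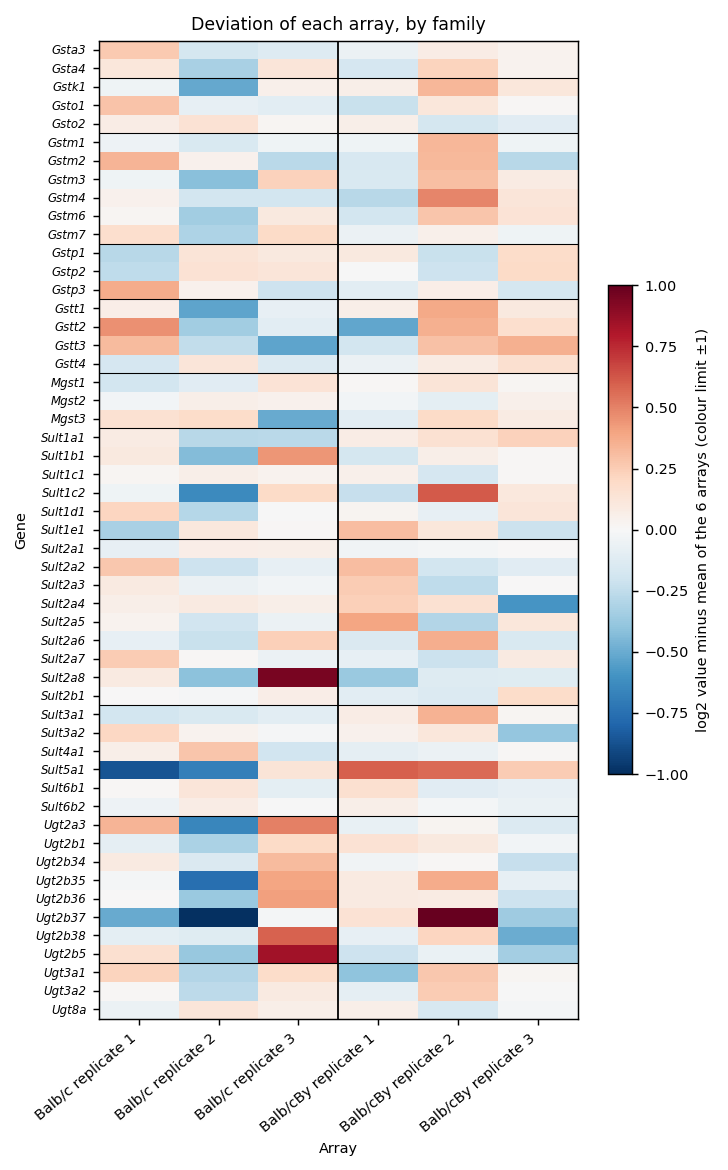
Deviation of each array (columns) from the 6-array mean, in log2 units, for the 53 genes (rows) ordered by family, with the colour scale limited at 1 on either side. Balb/c replicate 2 is low and replicate 3 high across the Ugt2 genes, and Balb/cBy replicate 2 is high across the Gst mu genes.

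The other Ugt genes varied less. Ugt3a2 had a log2 difference of 0.11 (SE 0.13) and Ugt3a1 one of -0.074 (SE 0.20), both transferases that use sugars other than glucuronic acid. Ugt8a, which makes galactosylceramide, a lipid of myelin, was at -0.082 (SE 0.10). The groups overlapped in all of them.

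Among the glutathione S-transferases, 13 of 21 differences were above 0 and 8 below, with a median of 0.060. That median ranged from 0.019 to 0.16 with 1 array left out (Balb/c replicate 2 and Balb/cBy replicate 1) and was 0.0040 with a repeated quantile normalization. The theta class, which acts on small halogenated compounds, had a median of 0.21 over 4 genes, which ranged from 0.10 without Balb/c replicate 3 to 0.36 with Balb/c replicate 1 left out. Gstt1 had values of 11.92, 11.33 and 11.77 in Balb/c and 11.91, 12.23 and 11.95 in Balb/cBy. Balb/c replicate 1 lay just above the lowest Balb/cBy array, and the log2 difference was 0.36 (SE 0.16, limma adjusted p = 0.999), or 0.19 without Balb/c replicate 2. Gstt3 differed by 0.31 (SE 0.23), Gstt4 by 0.12 (SE 0.11) and Gstt2 by -0.0012 (SE 0.26), each with overlap.

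Gstk1, the kappa class enzyme of mitochondria and peroxisomes, had values of 12.48, 12.02 and 12.58 in Balb/c and 12.58, 12.86 and 12.64 in Balb/cBy. The groups were apart by 0.0055, and the log2 difference was 0.33 (SE 0.16, limma adjusted p = 0.999), which fell to 0.16 without Balb/c replicate 2. With arrays recentred on their medians the groups overlapped, and so they did with a repeated quantile normalization. Gsto1 and Gsto2 of the omega class, which reduce dehydroascorbate, differed by -0.064 (SE 0.14) and -0.16 (SE 0.099).

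The mu class, a main group of liver Gst enzymes encoded side by side, had 4 of 6 differences above 0 and a median of 0.15. With 1 array left out that median ranged from 0.00040 (Balb/c replicate 2 left out) to 0.25 (Balb/cBy replicate 1 left out), and it was 0.036 without Balb/cBy replicate 2. Balb/cBy replicate 2 was the highest of the Balb/cBy arrays in all 6 (all genes, 35.9%). Gstm1 had values of 10.09, 9.99 and 10.09 in Balb/c and 10.10, 10.47 and 10.10 in Balb/cBy. The groups were apart by 0.0030 and overlapped once arrays were recentred or with a repeated quantile normalization. The difference of 0.17 (SE 0.12) was 0.040 without Balb/cBy replicate 2. Gstm4 had the largest difference of the class, 0.22 (SE 0.18), or 0.032 without the same array. Gstm3 and Gstm6 were at 0.15 each (SE 0.18 and 0.16), Gstm7 at -0.033 (SE 0.14) and Gstm2 at -0.075 (SE 0.20).

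In the alpha class, Gsta3, which is known to detoxify aflatoxin in mice, differed by 0.034 (SE 0.13), and Gsta4, which acts on the lipid peroxidation product hydroxynonenal, by 0.060 (SE 0.15). The sign of the Gsta3 difference turned with a repeated quantile normalization, to -0.016. The membrane-bound Mgst1 differed by 0.11 (SE 0.11). Mgst3 differed by 0.11 (SE 0.19) and Mgst2 by -0.047 (SE 0.090), both enzymes related to leukotriene C4 synthase.

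The pi class is known as abundant in male mouse liver. Gstp1 had values of 13.14, 13.55 and 13.52 in Balb/c and 13.52, 13.20 and 13.60 in Balb/cBy, and Gstp2 12.45, 12.85 and 12.83 against 12.70, 12.50 and 12.89. Both were low in Balb/c replicate 1 and Balb/cBy replicate 2 and high in the other 4 arrays, and their groups overlapped, with differences of 0.035 (SE 0.15) and -0.010 (SE 0.15). Gstp3 had 10.45, 10.12 and 9.87 in Balb/c and 9.97, 10.14 and 9.90 in Balb/cBy, with Balb/c replicate 1 highest. Its difference was -0.14 (SE 0.15). Gstp1 and Gstp2 are near copies, and the deposited probe sets may read transcripts of both, so their parallel values are not separate measurements.

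The start regions of Gstp1 and Gstp2 are shown because their genes ran in parallel over the arrays while Gstp3 did not. In a global alignment the runs of Gstp1 and Gstp2 were identical at 77.1% of positions, and those of Gstp1 and Gstp3 at 52.3%. For reference, the runs of Sult5a1 and Dpep1, which encode unlike enzymes, were identical at 53.1%. The part of the start regions in the parallel values was not tested. Gstp1 lies at chr19:4037863-4038162, minus strand, and Gstp2 at chr19:4042172-4042471, minus strand (GRCm38.p6, RefSeq). Capitals mark the AP-1 site, TGACTCA on either strand, which starts 74 bases before the start in Gstp1 and 89 bases before it in Gstp2, and the GCGTG core, found in Gstp1.
Gstp1: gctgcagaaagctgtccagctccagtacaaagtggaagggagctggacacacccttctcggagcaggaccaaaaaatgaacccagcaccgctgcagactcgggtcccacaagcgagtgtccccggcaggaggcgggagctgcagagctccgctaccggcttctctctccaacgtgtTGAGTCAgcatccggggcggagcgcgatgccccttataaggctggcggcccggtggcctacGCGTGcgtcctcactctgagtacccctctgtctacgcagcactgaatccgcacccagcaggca
Gstp2: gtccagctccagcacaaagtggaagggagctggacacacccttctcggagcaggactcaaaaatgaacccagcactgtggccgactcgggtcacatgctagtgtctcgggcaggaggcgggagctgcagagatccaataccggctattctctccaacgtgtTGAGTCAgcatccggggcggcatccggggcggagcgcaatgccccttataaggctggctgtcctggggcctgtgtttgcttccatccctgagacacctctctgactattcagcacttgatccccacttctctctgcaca

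Of the 53 genes, 46 had 57 start windows in RefSeq. TGACTCA was in 12.3% of these and in 5.2% of all 32851 windows, among them those of Gstp1, Gstp2, Mgst2, Sult1b1, Sult1c1, Sult2b1 and Ugt2b37. GCGTG was in 17.5% and in 32.4% of all windows. The NRF2 element TGACNNNGC, which can overlap TGACTCA, was in 5.26%, those of Gsta3, Gstm7 and Mgst1, and in 12.4% of all windows. A match is a stretch of letters and not a measured binding site.

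**Figure D4:**
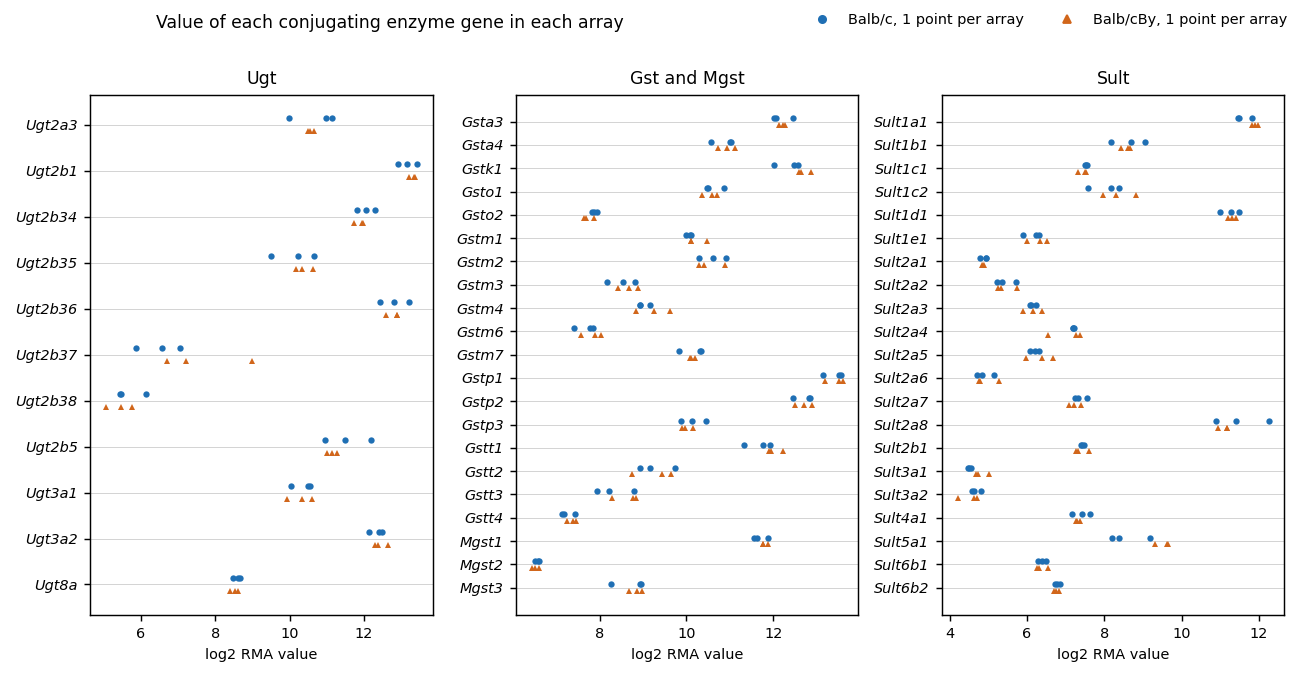
Log2 RMA values (x axis) of the 53 genes (y axis) in each array, with circles for Balb/c and triangles for Balb/cBy. Values are to be compared within a gene only, since each gene has its own probes. The substrains overlap in most genes, and Balb/c values are spread widely in the Ugt2 genes.

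Genes around the conjugating enzymes were counted from lists by role, and of 81 genes 0 passed an adjusted p of 0.05 with limma, 7 had an unadjusted p under 0.05 (8.64%; all genes, 3.76%), and 2 had one without moderation (2.47%; all genes, 3.26%). Transporters that take up or export conjugates had 10 of 13 differences below 0, with a median of -0.13. In fits added after the data were seen, with each array left out in turn, the median ranged from -0.18 to -0.014, and without Balb/c replicate 3 the count was 7 of 13 below 0. Slco1a4, an uptake carrier of organic anions, had values of 8.36, 8.13 and 8.56 in Balb/c and 6.85, 8.08 and 7.79 in Balb/cBy. Its groups did not overlap, and the log2 difference of -0.78 (SE 0.29) was -0.41 without Balb/cBy replicate 1, which was the lowest array. Abcg2, an exporter of sulfate conjugates, had values of 10.17, 9.98 and 10.15 in Balb/c and 9.79, 9.88 and 9.49 in Balb/cBy. The groups did not overlap, with a difference of -0.38 (SE 0.12). Together 2 of 13 transporters had groups that did not overlap (15.4%; all genes, 7.83%).

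Genes that supply the donors UDP-glucuronic acid, PAPS and glutathione had 7 of 17 differences above 0 and a median of -0.0034 (-0.070 to 0.021 with 1 array left out). Slc35b1, a nucleotide carrier of the endoplasmic reticulum, was at 0.40 (SE 0.13) and Sat1 at 0.27 (SE 0.11), both without overlap. Sat1 is the acetyltransferase of spermidine and spermine, which supplies none of these donors, and it is counted here only because the list held it. Receptors and regulators had 7 of 12 above 0 and a median of 0.019 (-0.016 to 0.11 with 1 array left out), with Arnt, the partner of AhR, at 0.21 (SE 0.11) without overlap and Ppara at -0.38 (SE 0.20). Known target genes of these receptors had 10 of 14 above 0 and a median of 0.12, or 7 of 14 and 0.014 without Balb/cBy replicate 2. Srxn1, a target of NRF2, was at 0.38 (SE 0.17) without overlap and Hmox1, the heme oxygenase, at 0.41 (SE 0.19).

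Enzymes that split conjugates or act on their products had 8 of 12 differences below 0 and a median of -0.057, or 4 of 12 and 0.068 without Balb/cBy replicate 1. Beside Dpep1, Ephx2, the soluble epoxide hydrolase, was at -0.26 (SE 0.11) without overlap. Other conjugating enzymes (methyl, acetyl and amino acid transferases) had 6 of 13 above 0 and a median of -0.014 (-0.20 to 0.066 with 1 array left out), with the methyltransferases Inmt at -0.43 (SE 0.19) and Nnmt at 0.86 (SE 0.38), whose groups overlapped.

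**Figure D5:**
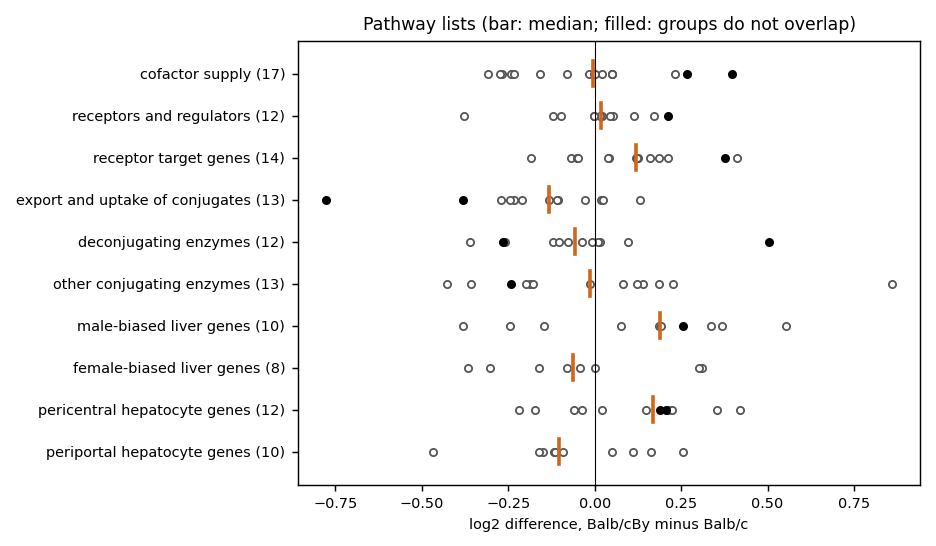
Log2 differences (x axis, Balb/cBy minus Balb/c) of genes in lists by role (y axis, number of measured genes in parentheses), with a bar at the median and filled points where groups do not overlap. The median of the transporters is -0.13 with all arrays and -0.014 without Balb/c replicate 3, and Dpep1 is the filled point at 0.50 among the deconjugating enzymes.

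Marker lists of other cells were counted beside these values. Stellate cell markers were above 0 in 9 of 10 (summed intensity 7800 to 9690 in Balb/c, 9250 to 11700 in Balb/cBy). Lum at 0.53 (SE 0.12) and Dcn at 0.48 (SE 0.14) were higher without overlap. Dcn had the highest values of the list and weighs most in the sum. The other stellate markers overlapped, and Hand2, Col1a1, Des and Col1a2 lay between 0.0036 and 0.032. Neutrophil markers were above 0 in 7 of 8 (1250 to 1440 and 1290 to 1640). Retnlg at 0.40 (SE 0.11) and S100a8 at 0.29 (SE 0.12) were higher without overlap, with log2 values below 7.25. S100a9, the highest of the neutrophil list, was at -0.0018 (SE 0.22). Lymphocyte markers were above 0 in 1 of 8, which was Ighm at 1.59 (SE 0.21). Ighm had the highest values of the list, whose summed intensity was 2240 to 2370 in Balb/c and 2940 to 4160 in Balb/cBy. The other lymphocyte markers were below 0. Ms4a1 at -0.27 (SE 0.093), Nkg7 at -0.24 (SE 0.086) and Cd79a at -0.17 (SE 0.098) were each lower without overlap. Gallbladder and intestine markers were above 0 in 1 of 6 (2340 to 3200 in Balb/c, 2060 to 2150 in Balb/cBy). Fabp2, an intestinal fatty acid binding protein, was at -0.73 (SE 0.20) without overlap, and its values, the highest of the list, weigh most in that sum. The other markers of the list lay between -0.12 (Muc13) and 0.011 (Vil1), and their groups overlapped. Exocrine pancreas markers were above 0 in 0 of 4 (967 to 1760 and 921 to 976). Their mean deviation was 0.63 in Balb/c replicate 3, the array in which the Ugt2 genes and the transporters were also high. Macrophage markers were above 0 in 5 of 10. Their mean deviations in Balb/c replicates 1, 2 and 3 were 0.064, 0.29 and -0.43, the reverse of the Ugt2 order. In Balb/c replicate 3 the stellate list was at -0.23, the neutrophil list at -0.20 and the gallbladder and intestine list at 0.15. Log2 array values have no 0, so no marker can be called absent. The part of these cells in the values of Sult5a1 and the other genes was not tested.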

How the data were processed

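RNA from 6 livers was extracted with Trizol, and 500 ng was turned into biotin-labelled cDNA, per the labels' protocols. The authors deposited log2 values of probe sets, made with RMA per the submitters' processing notes. That they are log2 follows from their range. The version of RMA is not given in the sources used here, nor is a build. Array medians lay between 7.66 and 7.74, and correlations between arrays between 0.972 and 0.988. Replicates are biological per the labels, and their number limits the precision.

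Genes were named from the platform annotation, which can be old. It gave 1 symbol for 23521 of 41345 probe sets, several for 1814 and none here for 16010. Where a gene had several probe sets, the one with the highest mean was used, which left 22180 genes, with no filter on low values. The 53 member symbols were all current by gene identifier in RefSeq.

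Balb/cBy was compared with Balb/c in limma 3.58.1 (R 4.3.3, lmFit and eBayes) without covariates, and p was adjusted by Benjamini-Hochberg over all genes. Intervals are 95% and use the moderated error. Groups were called not overlapping where every array of one strain lay above every array of the other. The smallest two-sided exact permutation p of 3 arrays against 3 is 0.1. The script was tested on simulated data. Alternatives were recentred arrays, a second quantile normalization, a filter on low values, a block for the replicate number, other choices of probe set, other variance models, array weights, a threshold of 0.1 and leaving out each array.

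Genes named were those without overlap, the 5 with the smallest p and the 4 with the highest mean among Ugt, Gst with Mgst, and Sult genes, and the largest difference of each family, and of each list the 2 with the smallest p. Others are given by their role. Cdh15, Cpne7 and the start regions were chosen after values were seen. The members and lists were chosen with earlier results of these data known.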

Additional observations from a re-analysis of the deposited data

How the results depend on the processing

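The count of conjugating enzyme genes past the threshold was 0 under every alternative run, including each array left out. Members with an unadjusted p under 0.05 in limma numbered 3, or 1 with the replicate block and 4 with array weights. They numbered 2 with a repeated quantile normalization, without the lowest 25% of genes and with a trended and robust variance. Over all 22180 genes the counts were 833 in the main fit, 511 with the block and 1761 with array weights. They were 898 with a repeated quantile normalization, 798 with the trended variance and 639 among genes left without the lowest 25%. Both counts were highest with array weights. Genes past the adjusted threshold over all genes numbered 0, but 12 with array weights. They numbered 0 to 3 with 1 array left out (2 without Balb/c replicate 3, and 3 with Balb/cBy replicate 1 left out). Members without overlap numbered 4 (7.55%, beside 7.83% of all genes). With recentred arrays they numbered 2, Sult3a1 and Sult5a1 (3.77%, beside 7.54% of all genes). With a repeated quantile normalization they numbered 4, Gstt1, Sult1a1, Sult3a1 and Sult5a1 (7.55%, beside 8.44% of all genes). With 1 array left out they numbered 5 to 11. Leaving out an array makes an absence of overlap more frequent, and the share over all genes was then 12.9% to 26.9%. Genes apart with all arrays stay apart when 1 is left out, so Gstk1, Gstm1, Sult3a1 and Sult5a1 were in each of those fits. Of the settings in this count, only recentred arrays and the repeated quantile normalization could change this. Sult3a1 and Sult5a1 stayed apart in both.

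Without the lowest 25% of genes, the median of Sult2 was -0.14 and that of Sult3 to Sult7 was 0.43, since fewer members were left. With array weights the median of the pi class was 0.17. With 1 array left out, medians ranged from -0.13 to 0.064 for kappa and omega, -0.040 to 0.12 for Mgst, -0.095 to 0.090 for the pi class and -0.091 to 0.11 for Ugt3 with Ugt8. Small differences changed sign, none of them called: Gstp2 was 0.0067 with recentred arrays and 0.17 with array weights, Gsta3 was -0.016 with a repeated quantile normalization and -0.055 with array weights, and Sult1d1 was -0.016 with a repeated quantile normalization. With 1 array left out, the ranges were -0.046 to 0.17 for Gsta3, -0.089 to 0.16 for Gsta4, -0.095 to 0.16 for Gstp1, -0.14 to 0.090 for Gstp2, -0.28 to 0.011 for Gstp3, -0.11 to 0.24 for Mgst3, -0.080 to 0.17 for Sult1d1 and -0.22 to 0.18 for Ugt2b36. The cause was not tested.

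With the replicate number as a block, 0 genes passed over all genes and 0 members, and 511 genes had an unadjusted p under 0.05 in limma, against 833 without it. Deviations of same-numbered arrays from their group means correlated at -0.32, -0.20 and -0.23, and those of differently numbered arrays at 0.015 to 0.22. Deviations within a group of 3 sum to 0, which constrains these values, so they cannot decide whether the numbers pair the arrays. The labels name no pairing. The differences themselves are the same with the block.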

Other observations

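Probe sets with several symbols were not used above, and 9 of them include a gene of these families. The 2 whose symbols are all Ugt1a genes, the locus of the bilirubin and phenol glucuronosyltransferases, had values of 9.09, 9.01 and 9.17 in Balb/c and 8.89, 9.20 and 9.07 in Balb/cBy for the one that covers 8 genes. For the one that covers 5 genes the values were 9.92, 9.59 and 9.90 in Balb/c and 9.83, 10.02 and 9.87 in Balb/cBy. Their log2 differences were -0.036 (SE 0.11) and 0.11 (SE 0.12), and the groups overlapped. The groups also overlapped in the other 7, whose differences lay between -0.10 and 0.20. The probe set with the symbols of both Gstp1 and Gstp2 had 12.71, 12.98 and 13.03 in Balb/c and 12.95, 12.73 and 13.11 in Balb/cBy, low in the same arrays as those given for each gene.

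Genes of zones and of sex bias in liver were counted from lists as well. Pericentral hepatocyte genes, the zone in which many conjugating enzymes are expressed, had 8 of 12 differences above 0 and a median of 0.17, with Cyp27a1 at 0.21 (SE 0.098) and glutamine synthetase, Glul, at 0.19 (SE 0.091), both without overlap. Periportal genes had 4 of 10 above 0 and a median of -0.10, with Hsd17b6 at -0.47 (SE 0.36) and Cdh1 at 0.25 (SE 0.14). Male-biased genes had 7 of 10 above 0 and a median of 0.19, with Serpina1e at 0.26 (SE 0.099) without overlap and Nudt7 at 0.55 (SE 0.27). Female-biased genes had 3 of 8 above 0 and a median of -0.061, with Cyp17a1 at 0.31 (SE 0.19) and Fmo2 at 0.30 (SE 0.31). Of these 40 genes, 0 passed an adjusted p of 0.05 in limma, 1 had an unadjusted p under 0.05, and 2 had one without moderation (2.5% and 5%; all genes, 3.76% and 3.26%). With 1 array left out, the median of the male-biased list ranged from -0.013 to 0.39, that of the female-biased list from -0.23 to 0.13, that of the periportal list from -0.17 to 0.0035 and that of the pericentral list from 0.11 to 0.23.

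Among genes with a mean log2 value of 10 or more, Balb/c replicate 2 was the lowest of the 6 arrays for 15 of 23 conjugating enzyme genes (65.2%) and for 37.6% of all such genes. Balb/c replicate 3 was the highest for 9 of the 23 (39.1%) and for 21.4% of all such genes.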
